A study of Mus musculus with 4 samples.

Results

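The myosin genes examined here are the 53 protein-coding gene identifiers whose mouse symbol is Myh, Myl or Myo followed by a number, or is Mylk, Mylk2 or Mylk3, out of 55421 listed genes. Myl9 was left out by the rule that chose them. They carry 52 symbols, because Myl12b has a second identifier that spans Myl12b and Myl12a and held 0 reads. RNA was sequenced from C57BL/6J astrocytes that had been grown from neural stem cells in a medium with serum. A lentivirus delivered a short hairpin RNA (shRNA), which silences a transcript, to every culture: a control shRNA in one group, and in the other an shRNA against Phf8, a histone demethylase. Each group had 2 libraries, made from total RNA with a strand-marking kit after ribosomal RNA was depleted. Both groups share the strain, the serum and the infection and differ in the hairpin, whose sequence the labels do not give. The series' design text calls the libraries biological replicates but does not say whether the 2 of a group came from separate cultures, so the spread behind each p-value is that between these samples and may be technical.

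Myosins are motors that walk along or pull on actin filaments using ATP. Class II myosins are the contractile ones: a pair of heavy chains, a pair of essential light chains and a pair of regulatory light chains assemble into filaments, and phosphorylation of the regulatory light chain by kinases such as the one encoded by Mylk switches the motor on. The other classes work as single or paired motors that tether membranes to actin, carry vesicles and organelles, or build filopodia and stereocilia. In astrocytes the nonmuscle class II motors are known for cell shape and stress fibres in culture, and the muscle heavy chains are best known from heart and skeletal fibres.

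Between 36839530 and 44724759 reads were assigned to genes per library, and ribosomal RNA of mitochondria (mt-Rnr1 with mt-Rnr2) took 21.2% to 22.5% of them in the control and 27.8% to 28.2% in the Phf8 shRNA libraries. The targeted gene Phf8 (chromosome X, 151520672 to 151633859 in mm10) stood at 53.3 and 53.0 CPM, the reads of a gene per 1e6 reads of its library, in control and 44.3 and 42.2 CPM in Phf8 shRNA libraries. Its log2 fold change was -0.30 ± 0.06 (standard error) with an edgeR adjusted p of 1.72e-06, so the targeted transcript was reduced but mostly present. CPM here carry edgeR's TMM scaling (trimmed mean of M-values), fold changes are Phf8 shRNA over control, and adjusted p-values come from edgeR's quasi-likelihood test over all genes with Benjamini-Hochberg adjustment, called under 0.05. In each pair of values below, the first is replicate 1 of the group and the second replicate 2. The counts come from bulk cultures, in which fewer cells of a type and less RNA per cell cannot be told apart.

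The myosin genes moved in both directions, with 5 of 6 class I genes tested lower and 4 of 7 muscle class II heavy chains higher. Of the 53 identifiers, 48 had at least 1 read and 37 passed the low-count filter. Among those 37, 10 were higher and 16 lower with Phf8 shRNA, and 11 did not pass the test. The higher count was 5 without control replicate 2 and 6 with DESeq2's Wald test. The called share was 70.3%, beside 52.1% of all genes tested. The higher share was 27.0%, beside 24.8% of all genes, and the lower share 43.2%, beside 27.3%. In 34 of the 37 both libraries of one group lay above both of the other, which held for 73.9% of all genes tested. A called difference of at least 2-fold was seen in 6 higher members (16.2% of the 37, beside 5.50% of all genes) and in 6 lower members (16.2%, beside 8.71%). Of the 6 higher, 4 had a mean under 1 CPM and calls that end under 3 to 8 of 14 alternatives, while the 6 lower all had a mean of at least 1 CPM.

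The counts were repeated for genes above a common level. Among the 26 members with a mean of at least 1 CPM, 6 were higher, 15 lower and 5 not called. That is 80.8% called, beside 63.0% of protein-coding genes at that level. The higher share of 23.1% stood beside 26.2%, and the lower share of 57.7% beside 36.8%. The median log2 fold change of these 26 was -0.31, against -0.05 for protein-coding genes at the same level. Reads of all members together went from 0.293% and 0.288% of the control libraries to 0.248% and 0.249% of the Phf8 shRNA libraries. These are shares of all reads, of which mitochondrial ribosomal RNA took more in the Phf8 shRNA libraries. With TMM scaling the members summed to 2861 and 2851 CPM in control and 2569 and 2500 CPM in Phf8 shRNA libraries.

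**Figure D1:**
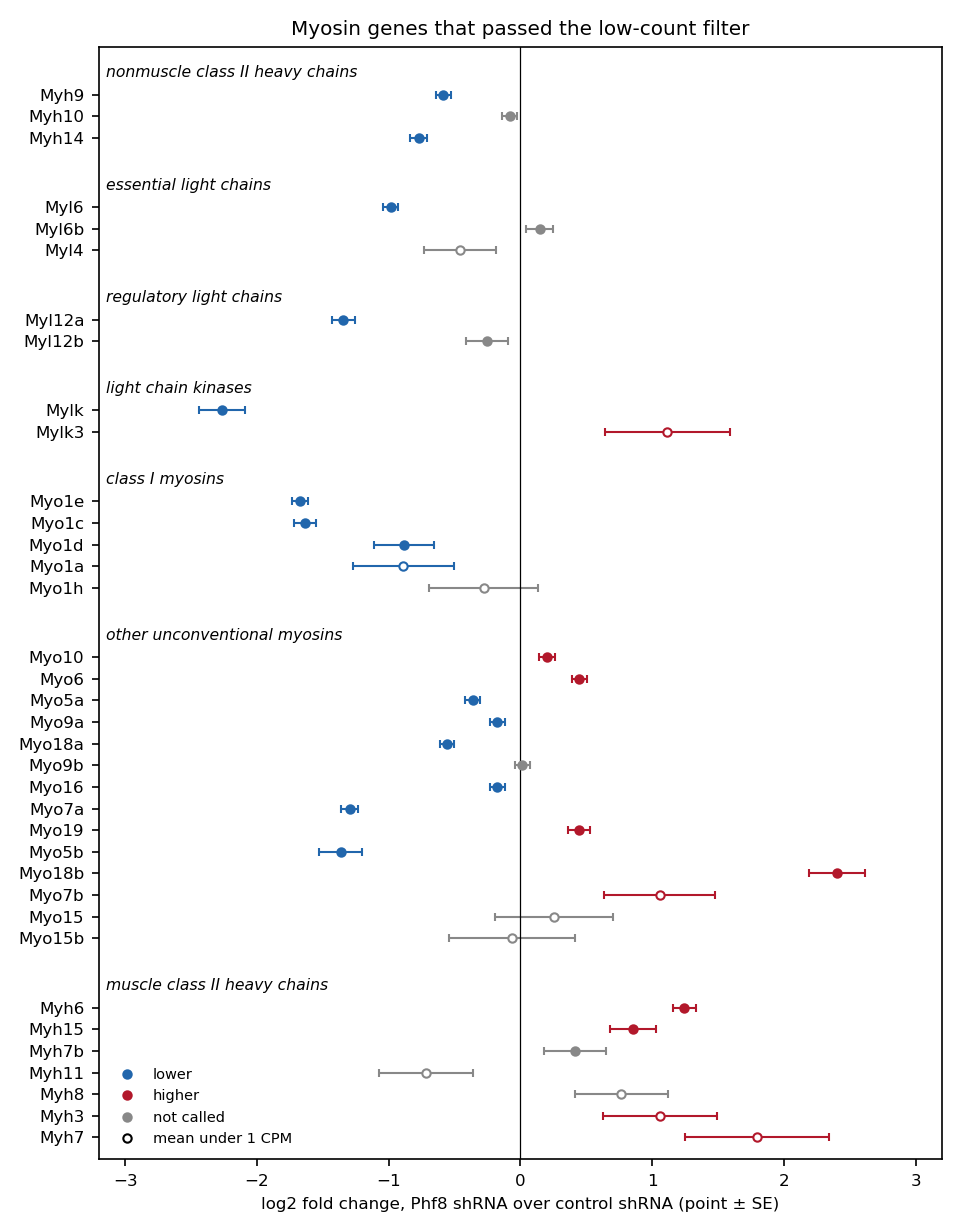
Log2 fold change (Phf8 shRNA over control shRNA, point with its standard error) of the myosin genes reported here that passed the low-count filter, grouped by role. Blue points are called lower, red points higher and grey points not called, and open points have a mean under 1 CPM. The called class I genes lie left of 0, and the 4 called muscle heavy chains lie right of it.

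The nonmuscle class II heavy chains, which form the contractile motor of most cells, were measured in full. Myh9 (ENSMUSG00000022443, chromosome 15, 77760587 to 77842175, minus strand), the heavy chain of nonmuscle myosin IIA, gave 221 and 216 CPM in control and 146 and 144.5 CPM in Phf8 shRNA libraries. Both Phf8 shRNA libraries were below both controls, with a log2 fold change of -0.59 ± 0.06 and an edgeR adjusted p of 2.32e-24. Myh14 (ENSMUSG00000030739, chromosome 7, 44605803 to 44670843), the heavy chain of myosin IIC, went the same way, from 39.6 and 37.8 CPM to 21.9 and 23.5 CPM. Its log2 fold change was -0.77 ± 0.07 (edgeR adjusted p 3.05e-31).

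Myh10 (ENSMUSG00000020900, chromosome 11, 68691559 to 68816632), the heavy chain of myosin IIB, stood at 126 and 125 CPM in control and 119.6 and 117 CPM in Phf8 shRNA libraries. Its log2 fold change of -0.08 ± 0.06 did not pass the test (edgeR adjusted p 0.219), although the groups did not overlap. With the library size alone as scaling it was -0.13 and called, and with upper-quartile scaling it was 0.00. The makeup of the trio was therefore computed within each library, where scaling cancels. On the scale of CPM per kilobase of exon, Myh10 made up 34.8% and 35.3% of the summed level of the 3 genes in control and 44.4% and 43.8% in Phf8 shRNA libraries. Myh9 went from 49.4% and 49.3% to 43.9% and 43.6%, and Myh14 from 15.7% and 15.4% to 11.7% and 12.6%. All 3 shares separated the groups, but an exact two-sided permutation test of 2 against 2 libraries cannot go below 0.333, which is what each of the 11 within-library shares tested here gave.

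The essential light chains bind the neck of the heavy chain. Myl6 (ENSMUSG00000090841, chromosome 10, 128490860 to 128494145, minus strand) encodes the form used by nonmuscle and smooth muscle myosin and was the light chain gene with the most reads. It gave 199 and 185 CPM in control and 98.9 and 95.5 CPM in Phf8 shRNA libraries. The control level was 1.98 times the Phf8 shRNA level, a log2 fold change of -0.98 ± 0.06 (edgeR adjusted p 2.35e-66). Its neighbour Myl6b (ENSMUSG00000039824, 128494157 to 128498685) lies on the same strand and ends 11 bases before Myl6 begins, and encodes a closely related chain.

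For Myl6b no difference passed the test. It stood at 7.24 and 7.46 CPM in control and 8.37 and 7.85 CPM in Phf8 shRNA libraries, a log2 fold change of 0.15 ± 0.10 (edgeR adjusted p 0.233). Per kilobase of exon, Myl6b made up 5.90% and 6.49% of the summed level of both genes in control, and 12.7% and 12.4% in Phf8 shRNA libraries. The exon length joins all annotated exons of a gene, which for Myl6 cover 3187 of the 3286 bases it spans. The size of the Myl6b share therefore depends on these models. The direction of its change does not, as the lengths are the same in every library. In the GENCODE M21 models 8.38% of the 50-base stretches of Myl6 recur in other genes, among them processed copies of Myl6, so a small part of its reads cannot be placed with certainty. Of the other essential light chains, the atrial and embryonic Myl4 was at 1.202 and 0.856 CPM in control and 0.76 and 0.74 CPM in Phf8 shRNA libraries and was not called. Myl1 and Myl3, which serve skeletal muscle and the ventricle, held 2 to 8 reads in each control library and were not tested.

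The promoter sequences of light chain genes differ in the motifs that a search of their letters finds. RefSeq (GRCm38.p6) listed promoters, 250 bases before to 50 after a start, for 45 of the 52 symbols, 57 promoters in all. A set of 3 motifs named for factors tied to cytoskeletal genes were searched on both strands. They were the CArG box bound by SRF, GGAATG bound by TEAD factors, and TGANTCA for AP-1. Any base was accepted at N, which is looser than the AP-1 site itself, with G or C there. The stretch before Myl6b is shown because its gene did not pass the test beside a neighbour that fell. It covers chr10:128498686-128498935 on the minus strand, and capitals mark a match to the AP-1 motif that starts 135 bases before the gene.
Myl6b: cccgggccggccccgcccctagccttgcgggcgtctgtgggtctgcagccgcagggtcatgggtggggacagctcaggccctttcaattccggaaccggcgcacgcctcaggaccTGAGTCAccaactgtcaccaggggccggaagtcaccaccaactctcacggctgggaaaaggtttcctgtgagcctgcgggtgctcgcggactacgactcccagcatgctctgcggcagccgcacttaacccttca

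Of the 57 member promoters, 6 (10.5%) held a CArG box, beside 535 of 32851 promoters of that length in the whole table (1.63%). They belong to Myl6, Myo1e, Myl3, Myl7, Myh4 and Myh13, and of these only Myl6 and Myo1e were well expressed here. Their matches are shown side by side in windows of 30 bases with the CArG box in capitals. The Myl6 window is chr10:128493040-128493069 on the minus strand, 50 bases before a RefSeq start that lies inside the gene and within an annotated exon. The other RefSeq promoter of Myl6, with upstream stretch chr10:128493887-128494136, lies nearer the annotated start of the gene and held no match to these motifs. The Myo1e window is chr9:70207308-70207337 on the plus strand, 32 bases before the start of the gene.
Myl6: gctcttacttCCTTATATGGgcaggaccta
Myo1e: gctgaattctCCATTTATGGacagattgcc

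The TEAD motif stood in 16 member promoters (28.1%), beside 14.7% of all promoters, and the AP-1 motif in 6 (10.5%), beside 7.81%. The AP-1 match of Myh1 reads TGATTCA, which only the looser pattern accepts. A match is a run of letters and not a bound site, and no binding was measured in these libraries.

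The regulatory light chains carry the serine and threonine that switch class II motors on. Myl12a (ENSMUSG00000024048, chromosome 17, 70993656 to 71002878, minus strand) gave 18.2 and 18.4 CPM in control and 7.24 and 7.17 CPM in Phf8 shRNA libraries. The libraries of each group lay close together and the groups far apart, with a log2 fold change of -1.34 ± 0.09 (edgeR adjusted p 9.03e-51). Myl12b (ENSMUSG00000034868, 70973133 to 70990890), its near-identical neighbour on the same strand, gave 3.40 and 2.86 CPM in control and 2.68 and 2.56 CPM in Phf8 shRNA libraries. That log2 fold change of -0.26 ± 0.16 did not pass the test (edgeR adjusted p 0.179).

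Within the pair, Myl12b made up 18.4% and 15.9% of the level per kilobase in control and 31.0% and 30.2% in Phf8 shRNA libraries. These shares are uncertain, because 16.4% of the 50-base stretches of Myl12a and 25.4% of those of Myl12b recur in another gene model. A readthrough model, the second Myl12b identifier, also overlaps 13.8% of the exons of Myl12a and 26.7% of those of Myl12b on the same strand. Myl2 and Myl7, regulatory chains of striated muscle, and Myl10 held 0 or 1 read in each library. Myl9, the smooth muscle type regulatory chain that the rule leaves out, went from 29.5 and 27.9 CPM to 3.70 and 3.51 CPM. Per kilobase of exon its mean was 24.7 in control, above the 5.44 of Myl12a and the 1.13 of Myl12b. The size of that gap depends on the exon lengths of 1162, 3360 and 2770 bases. In CPM the control means were 28.7 for Myl9, 18.3 for Myl12a and 3.13 for Myl12b.

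**Figure D2:**
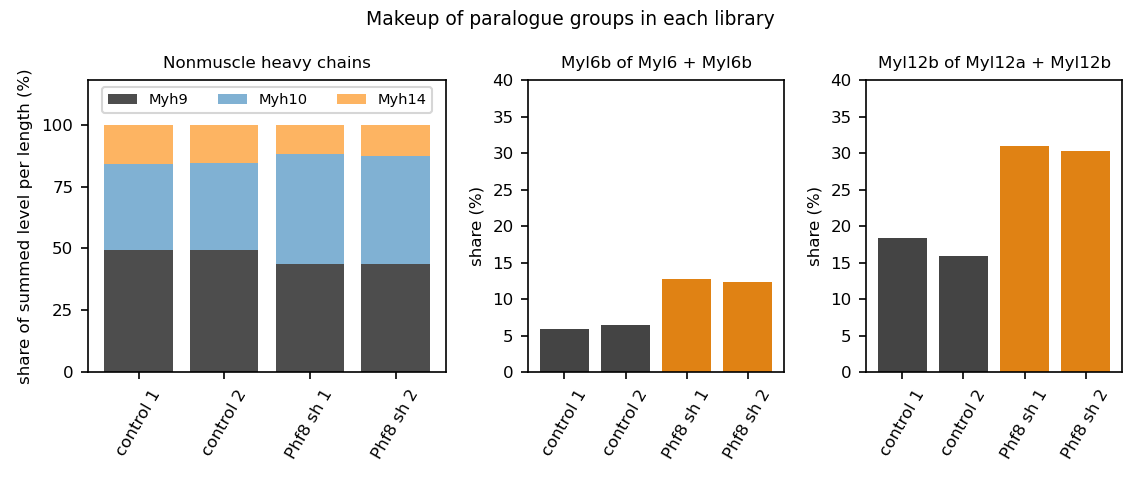
Makeup of paralogue groups in each library, as shares (%) of the summed level per kilobase of exon. Left, stacked bars for the nonmuscle heavy chains Myh9, Myh10 and Myh14; middle and right, the share of Myl6b and of Myl12b within its pair, with control libraries in grey and Phf8 shRNA libraries in orange. In both Phf8 shRNA libraries Myh10, Myl6b and Myl12b take larger shares than in either control library.

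Of the kinases that phosphorylate the regulatory light chain, Mylk (ENSMUSG00000022836, chromosome 16, 34745210 to 35002420, plus strand) encodes the calmodulin-dependent kinase of smooth muscle and nonmuscle cells. It gave 5.32 and 4.69 CPM in control and 0.93 and 1.17 CPM in Phf8 shRNA libraries. The control mean was 4.81 times the Phf8 shRNA mean, a log2 fold change of -2.27 ± 0.18 (edgeR adjusted p 7.99e-36), the lowest of the 37 members tested. Exons of genes on the opposite strand overlap 6.85% of those of Mylk. Mylk3, the cardiac kinase, was called higher from 6 and 8 control reads against 11 and 18 reads. Its ratio of summed library-scaled reads was 2.18 with a 95% exact counting interval of 1.12 to 4.47, which covers counting error only, and 8 of 14 alternatives end the call. Mylk2, the skeletal muscle kinase, held 0 to 2 reads per library and was not tested.

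The stretch before an inner RefSeq start of Mylk is shown as the kinase gene with the largest fall, a choice made after its values were seen. It covers chr16:34784700-34784920 on the plus strand, and capitals mark CATTCC, the TEAD motif on the other strand, and an AP-1 motif, 158 and 64 bases before that start. The last 29 bases before the start lie in an annotated exon and are not shown.
Mylk: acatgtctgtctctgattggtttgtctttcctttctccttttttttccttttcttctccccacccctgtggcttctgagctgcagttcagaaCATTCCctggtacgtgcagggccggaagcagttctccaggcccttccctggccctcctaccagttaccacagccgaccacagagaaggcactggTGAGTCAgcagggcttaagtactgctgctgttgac

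The class I myosins are single-headed motors that link membranes to actin, and 5 of the 6 tested were lower with none higher. The lower share was 83.3%, beside 27.3% of all genes tested. Their summed level was 202.5 and 203 CPM in control and 77.1 and 74.8 CPM in Phf8 shRNA libraries. Most of it came from Myo1e (ENSMUSG00000032220, chromosome 9, 70207350 to 70399766, plus strand), a long-tailed class I myosin of endocytic and adhesion sites. Myo1e gave 145.5 and 148 CPM in control and 47.0 and 44.9 CPM in Phf8 shRNA libraries. The control mean was 3.19 times the Phf8 shRNA mean, with a log2 fold change of -1.67 ± 0.06 and an edgeR adjusted p of 9.22e-179. Among members with a mean of at least 10 CPM this was the largest fall, and the sequence before its start is shown for that reason. It covers chr9:70207100-70207349, directly before the annotated gene, with the CArG box in capitals.
Myo1e: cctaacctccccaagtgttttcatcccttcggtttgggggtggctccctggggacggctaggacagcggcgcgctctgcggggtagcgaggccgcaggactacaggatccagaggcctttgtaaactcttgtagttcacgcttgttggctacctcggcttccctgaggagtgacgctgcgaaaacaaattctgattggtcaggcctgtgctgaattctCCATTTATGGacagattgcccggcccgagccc

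Myo1c (ENSMUSG00000017774, chromosome 11, 75650504 to 75673910), a short-tailed motor that delivers and tethers vesicles at the plasma membrane, fell about as much on the log2 scale. It stood at 26.6 and 25.5 CPM in control and 8.46 and 8.28 CPM in Phf8 shRNA libraries, a log2 fold change of -1.64 ± 0.08 (edgeR adjusted p 4.69e-88). Myo1e went from 78.2% and 79.1% of the class I level per kilobase to 70.6% and 69.7%. The share of Myo1c was 12.4% and 11.8% in control and 11.0% and 11.2% in Phf8 shRNA libraries.

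At lower levels, Myo1d (chromosome 11, 80482126 to 80780025) went from 1.92 and 1.64 CPM to 0.90 and 1.03 CPM, or -0.88 ± 0.23 (edgeR adjusted p 3.35e-04). Myo1a, the brush border myosin of the gut, was called lower from 26 and 21 control reads against 14 and 10 reads. Its edgeR adjusted p of 0.0418 is close to the threshold, and 7 of 14 alternatives end the call. Myo1h was not called, and Myo1f and Myo1g, found mostly in blood cells, held 0 to 3 reads per library and were not tested.

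The remaining unconventional myosins, of classes III to XIX, went both ways: of 14 tested, 5 were higher, 6 lower and 3 not called, with a median log2 fold change of -0.03. Their summed level was similar in both groups, at 2025 and 2037 CPM in control and 2059 and 1998 CPM in Phf8 shRNA libraries. Myo10 (ENSMUSG00000022272, chromosome 15, 25622525 to 25813673), the motor of filopodial tips, held the most reads of all members. It gave 578 and 551 CPM in control and 641.5 and 655 CPM in Phf8 shRNA libraries, a log2 fold change of 0.20 ± 0.06 (edgeR adjusted p 0.00219). Without control replicate 2 the value was 0.17 and the adjusted p 0.0802, so that call rests on this library.

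Myo6 (ENSMUSG00000033577, chromosome 9, 80165031 to 80311729), the motor that moves toward the minus end of actin and serves endocytosis, was higher. It stood at 354 and 370.2 CPM in control and 510.1 and 477 CPM in Phf8 shRNA libraries, with both of the latter above both controls. The log2 fold change was 0.45 ± 0.06 (edgeR adjusted p 1.87e-13). Myo19 (chromosome 11, 84880148 to 84911226), the motor of mitochondria, was higher by nearly the same amount, from 11.8 and 11.4 CPM to 15.4 and 16.2 CPM, or 0.44 ± 0.08 (edgeR adjusted p 3.93e-07).

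Class V myosins carry vesicles and organelles. Myo5a (ENSMUSG00000034593, chromosome 9, 75071015 to 75223688) gave 471 and 489 CPM in control and 388 and 358 CPM in Phf8 shRNA libraries, a log2 fold change of -0.36 ± 0.06 (edgeR adjusted p 2.82e-09). Myo5b (chromosome 18, 74440936 to 74771493), the recycling endosome motor, fell further, from 4.92 and 4.204 CPM to 2.06 and 1.44 CPM, or -1.37 ± 0.16 (edgeR adjusted p 2.29e-16). Myo5a still made up 98.4% to 99.3% of the class V level per kilobase in every library. Myo5c held 4 to 11 reads per library and was not tested.

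Among the motors known from inner ear hair cells, Myo7a (ENSMUSG00000030761, chromosome 7, 98051060 to 98119524) went from 45.4 and 45.2 CPM to 18.3 and 18.6 CPM. The libraries of each group nearly coincided, and the log2 fold change was -1.30 ± 0.07 (edgeR adjusted p 2.79e-84). Its relative Myo7b, from the gut brush border, was called higher from 11 and 8 reads against 28 and 10 reads. The 10 reads of Phf8 shRNA replicate 2 are close to the controls, and 7 of 14 alternatives end the call, among them leaving out replicate 1 of that group. Myo15 and Myo15b, at 8 to 13 reads per library, were not called, while Myo3a held 0 reads and Myo3b 5 to 14 reads.

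The class IX, XVI and XVIII genes changed little or moderately, with 1 exception. Myo18a (ENSMUSG00000000631, chromosome 11, 77763246 to 77865980), which links the Golgi to actin, fell from 188 and 184 CPM to 127 and 126 CPM, or -0.56 ± 0.06 (edgeR adjusted p 2.76e-22). Myo9a (chromosome 9, 59750896 to 59928866) was at 190.0 and 203 CPM in control and 179 and 169.6 CPM in Phf8 shRNA libraries, or -0.18 ± 0.06. Myo16 (chromosome 8, 10153911 to 10634742), expressed in brain, was at 74.4 and 72.6 CPM against 65.9 and 64.0 CPM, also -0.18 ± 0.06. Both calls are small, at edgeR adjusted p-values of 0.00437 and 0.00428, and neither holds with upper-quartile scaling, where the values were -0.09 and -0.09. Myo9b (chromosome 8, 71272714 to 71360713), a relative of Myo9a, gave 105.5 and 105.6 CPM in control and 107 and 106 CPM in Phf8 shRNA libraries. Its log2 fold change of 0.01 ± 0.06 did not pass the test (edgeR adjusted p 0.858).

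Myo18b (ENSMUSG00000072720, chromosome 5, 112688876 to 112896362, minus strand), a class XVIII gene required in heart and skeletal muscle, was the exception and rose the most of all members tested. It held 32 and 25 reads in control and 150 and 137 reads in Phf8 shRNA libraries, or 0.74 and 0.61 CPM against 3.47 and 3.73 CPM. Every Phf8 shRNA library lay well above both controls. The fold change was 5.29, or 2.40 ± 0.21 on the log2 scale, with an edgeR adjusted p of 4.59e-29. Its level was low in absolute terms: per kilobase of exon the control mean was 0.063, the lowest of the 26 members named by level.

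The muscle class II heavy chains were the group in which called genes were only higher: of 7 tested, 4 were higher, 0 lower and 3 not called. The higher share was 57.1%, beside 24.8% of all genes tested. Their summed level was 12.5 and 12.7 CPM in control and 26.3 CPM in each Phf8 shRNA library. Myh6 (ENSMUSG00000040752, chromosome 14, 54941921 to 54966927, minus strand), the alpha heavy chain of the heart, supplied most of it. Myh6 gave 8.46 and 8.19 CPM in control and 19.6 and 19.8 CPM in Phf8 shRNA libraries. The fold change was 2.37, or 1.24 ± 0.08 on the log2 scale, with an edgeR adjusted p of 3.04e-47, the largest rise among members with a mean of at least 10 CPM. The sequence before its RefSeq start, which lies inside the annotated gene, is shown for that reason. It covers chr14:54966642-54966857 on the minus strand, outside annotated exons, with a TEAD motif in capitals that starts 206 bases before the start. The last 34 bases before the start lie in an annotated exon and are not shown.
Myh6: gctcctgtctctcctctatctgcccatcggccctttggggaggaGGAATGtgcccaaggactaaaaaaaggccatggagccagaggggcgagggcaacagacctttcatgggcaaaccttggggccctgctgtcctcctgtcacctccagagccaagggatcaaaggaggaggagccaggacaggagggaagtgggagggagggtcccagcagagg

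Myh7, the beta heavy chain of the heart, lies 3756 bases away on the same strand (54970684 to 54994626) and was called higher from few reads, and 3 of 14 alternatives end the call. It held 5 and 3 reads in control and 16 and 11 reads in Phf8 shRNA libraries, a ratio of library-scaled reads of 3.55 (95% exact counting interval 1.57 to 9.05). Of the 50-base stretches of Myh6, 20.2% recur in Myh7 or another gene, and 13.3% of the Myh7 exons are overlapped on the opposite strand, so reads between the pair are uncertain. Myh6 made up 98.6% to 99.3% of the pair per kilobase in every library.

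Myh15 (chromosome 16, 49057486 to 49199104), an ancient slow-type heavy chain, rose from 1.62 and 2.10 CPM to 3.68 and 2.997 CPM, or 0.85 ± 0.17 (edgeR adjusted p 2.65e-06). Myh7b (chromosome 2, 155611212 to 155634307), a slow heavy chain gene also transcribed in heart, gave 1.11 and 1.00 CPM against 1.09 and 1.77 CPM. Its groups overlapped and it was not called, but without Phf8 shRNA replicate 1 its log2 fold change was 0.74 with an edgeR adjusted p of 0.0119. Myh3, the embryonic skeletal heavy chain, was called higher from 7 and 11 reads against 21 and 15 reads, and 6 of 14 alternatives end that call. Myh8 and Myh11 were not called. Their log2 fold changes were 0.765 ± 0.35 and -0.719 ± 0.35, so Myh11 pointed the other way from the called chains. Myh1, Myh2, Myh4 and Myh13 held 0 or 1 read in each library. Myh3, Myh8 and those 4 genes lie in the skeletal heavy chain cluster of chromosome 11, which carries 16 of the 53 members.

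**Figure D3:**
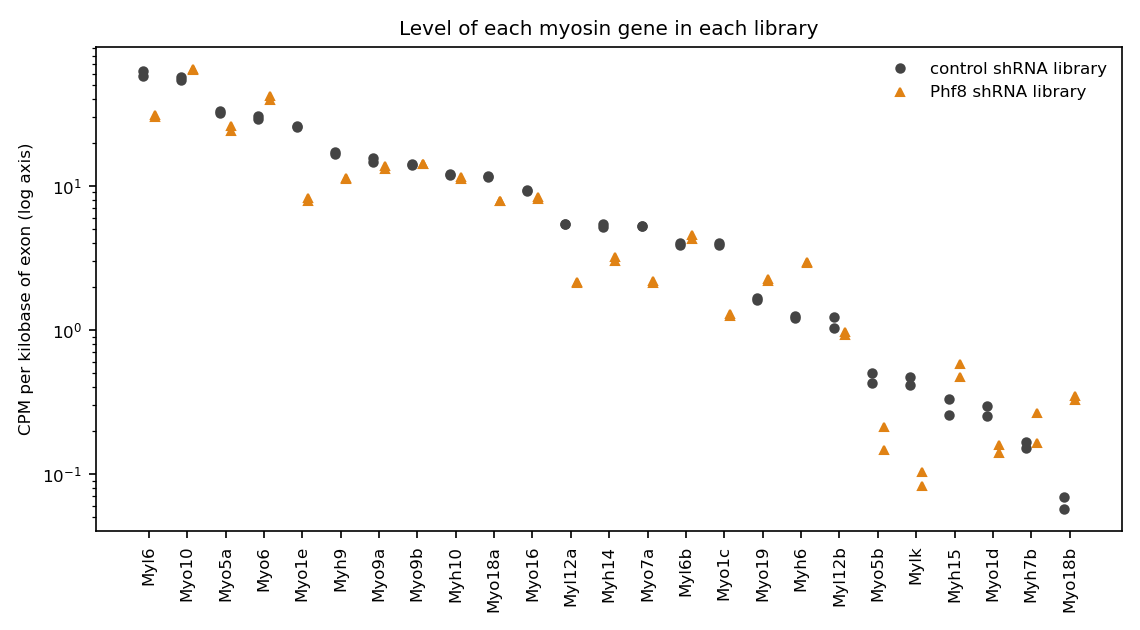
Level of the members reported here with a mean of at least 1 CPM in each library, as CPM per kilobase of exon on a log axis, ordered by the control mean. Grey circles are control and orange triangles Phf8 shRNA libraries. Myl6 leads in control and Myo10 in Phf8 shRNA libraries, and Myo18b, at the right end, has the largest gap upward.

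The order of levels, on the scale of CPM per kilobase of exon, changed at the top. That order depends on the exon lengths used. In control libraries Myl6 led with a mean of 60.3, followed by Myo10 at 55.8, Myo5a at 32.4, Myo6 (29.3 and 30.7 in its 2 libraries), Myo1e at 25.7 and Myh9 at 16.9. In Phf8 shRNA libraries Myo10 led with 64.1, followed by Myo6 at 40.9, Myl6 at 30.5 and Myo5a at 25.2, with Myo1e at 8.05. Myh10 and Myh9 were next to each other there, at 11.33 and 11.25, whereas in control Myh9 stood at 16.9 and Myh10 at 11.99. Some neighbours in the control order had overlapping libraries and cannot be ranked, among them Myl12a with Myh14, Myh14 with Myo7a, and Myl6b with Myo1c.

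Genes that act with myosins were followed in 3 lists. In the list of light chain phosphorylation (small GTPases, kinases, phosphatase subunits and calmodulins), 3 of 23 tested were higher and 12 lower, with a median log2 fold change of -0.16. That is 13.0% higher and 52.2% lower, beside 24.8% and 27.3% of all genes tested. All genes of the 3 lists are protein-coding, and of protein-coding genes tested 25.2% were higher and 35.2% lower. The called share of this list, 65.2%, was near the 60.4% of protein-coding genes tested. Rhob, a small GTPase of endosomes and actin, fell from 108 and 104 CPM to 43.0 and 42.6 CPM, or -1.31 ± 0.06 (edgeR adjusted p 6.12e-112). Ppp1cb, the catalytic subunit of myosin phosphatase, was at -0.56 ± 0.06, the kinase gene Pak1 at -0.46 ± 0.07 and the calmodulin gene Calm3 at -0.38 ± 0.06.

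The list of actin filament partners held the largest differences: 20 of 26 tested were lower and 2 higher, with a median of -0.98 and 12 lower by at least 2-fold. The lower share was 76.9%, beside 27.3% of all genes tested, and the higher share 7.69%, beside 24.8%. Of all genes tested, 8.71% were lower by at least 2-fold. Cnn2, a calponin that binds actin and restrains myosin, went from 21.0 and 19.9 CPM to 0.76 and 0.57 CPM, or -4.92 ± 0.14 (edgeR adjusted p 1.35e-270). Shroom3, a regulator of apical actin, went from 78.5 and 79.3 CPM to 9.51 and 11.4 CPM, or -2.92 ± 0.07. Tagln2, a transgelin that bundles actin, was at -2.79 ± 0.07 and Cnn3, another calponin, at -1.66 ± 0.06. Exons of an opposite-strand gene overlap 24.9% of those of Shroom3 and 17.7% of those of Cnn3. Limch1, which activates nonmuscle myosin II, rose from 60.9 and 63.2 CPM to 139 and 134 CPM.

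Cargo adaptors and tail partners of unconventional myosins were mixed, with 6 of 22 tested higher, 7 lower and a median of -0.03. These shares, 27.3% higher and 31.8% lower, were near the 24.8% and 27.3% of all genes tested. Myrip, which links Rab27a to class V and VII myosins, rose from 5.66 and 4.67 CPM to 26.9 and 26.6 CPM, or 2.37 ± 0.09 (edgeR adjusted p 7.83e-156). Eps8, a capping protein carried to protrusion tips, was at 0.79 ± 0.06. The light chains Dynll1 and Dynll2, which bind class V tails, moved apart, at -0.65 ± 0.06 and 0.44 ± 0.06.

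**Figure D4:**
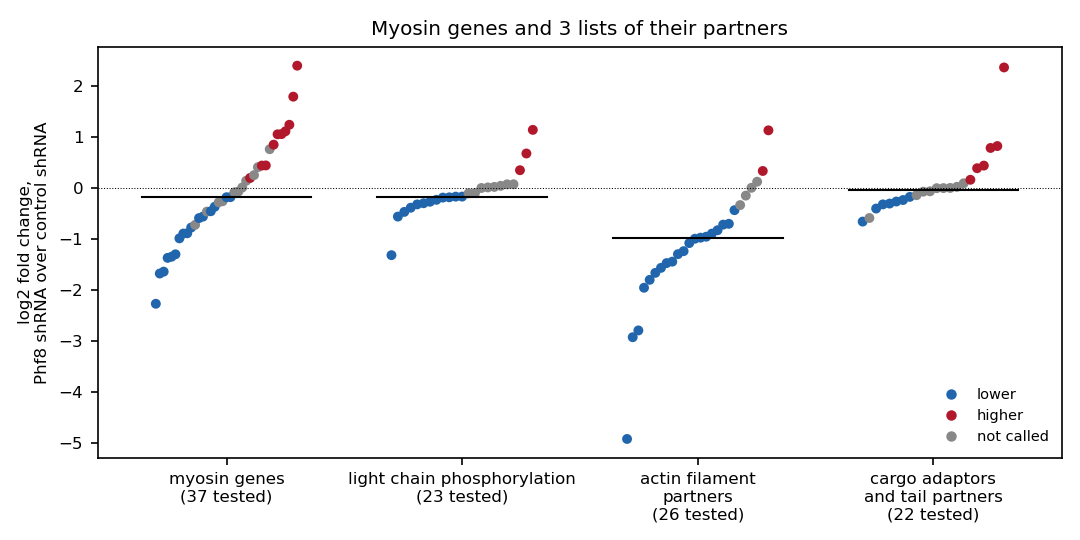
Log2 fold change (Phf8 shRNA over control shRNA) of each tested gene among the myosin genes and 3 lists of their partners, each sorted from low to high, with the median as a black line. Colours give the call. The median of the actin filament partners lies at -0.98, and those of the other 3 sets between -0.18 and -0.03.

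Markers of other cell types moved beside the myosin genes. The counts of markers below stand beside 24.8% higher and 27.3% lower among all genes tested. Striated muscle markers, set beside the higher muscle heavy chains, had 2 higher and 3 lower of 11 tested, and their summed level was 21.3 to 22.7 CPM in control and 19.5 to 20.0 CPM in Phf8 shRNA libraries. The higher markers were Actc1, the cardiac actin, at 1.00, and Ryr1, the calcium release channel of skeletal muscle, at 1.31 on the log2 scale. Both rest on few reads. Actc1 held 23 and 19 reads in control and 45 and 35 in Phf8 shRNA libraries, and Ryr1 25 and 9 against 32 and 48. Among the lower was Tnni3, the cardiac inhibitory troponin, at -3.35. Exons of Dnaaf3 on the same strand overlap 4.17% of those of Tnni3, so some of its reads are uncertain. The titin gene Ttn stood at 11.3 and 11.5 CPM in control and 12.1 CPM in each Phf8 shRNA library and was not called. Of the factors that define skeletal muscle, Myod1 was at or below 0.05 CPM in every library and Myog at most at 0.11 CPM. Smooth muscle and mural markers, set beside Mylk and Myl6, had 7 lower and 2 higher of 11 tested. All 7 lower markers fell by at least 2-fold, among them Acta2, from 9.32 and 8.31 CPM to 0.30 and 0.57 CPM. The summed list was at 88.2 to 98.5 CPM in control and 185.5 to 197 CPM in Phf8 shRNA libraries, most of it Notch3. Without Notch3 it was at 30.02 to 31.21 CPM and 28.4 to 28.9 CPM. That remainder still holds Pdgfrb, called higher, which went from 9.55 and 9.53 CPM to 23.8 and 24.0 CPM. The near-level remainder therefore does not mean that its other markers were unchanged. The intermediate filament gene Des was at or below 0.05 CPM. Microglia and blood markers summed to 8.99 to 9.71 CPM in control and 6.13 to 6.18 CPM in Phf8 shRNA libraries, with Ptprc, Itgam and Tmem119 at or below 0.05 CPM, and 2 of 5 tested were lower. Fibroblast markers summed to 1.06 to 1.17 CPM in control and 1.90 to 2.10 CPM in Phf8 shRNA libraries, with 1 of 2 tested higher.

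Markers of multiciliated and neural cells also differed. Multiciliated cell markers were lower in 7 of 7 tested, from 229 to 236 CPM in sum down to 46.2 to 50.1 CPM. Oligodendrocyte lineage markers were higher in 10 of 10, from 602 to 643 CPM up to 1116 to 1153 CPM, and neuron markers in 7 of 8, from 1156 to 1195 CPM up to 1896 to 1901 CPM. Astrocyte markers, which check the labelled cell type, were all present, at 9039 to 9282 CPM in sum in control and 5747 to 6439 CPM in Phf8 shRNA libraries, with 2 higher and 5 lower of 8. Gfap went from 4079 and 3863 CPM to 1319 and 1024 CPM, and the glutamate transporter gene Slc1a2 from 135.5 and 135.1 CPM to 968 and 982 CPM. Without Gfap the astrocyte sum was 5176 to 5204 CPM in control and 4723 to 5121 CPM in Phf8 shRNA libraries. The part of these shifts, and of the higher mitochondrial ribosomal RNA share, in the myosin results was not tested.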

How the data were processed

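The deposited files give a whole-number count of reads per gene for each library. Per the submitters' processing notes, the tools were HISAT2, HTSeq and DESeq2 with the mm10 build. Not given in the sources used here were the versions, the strand setting and the annotation release. GENCODE M21 (mm10) held 55240 of 55421 identifiers and supplied symbols, gene types and exon lengths. An exon length joins all annotated exons of a gene, so shares and orders per kilobase between genes depend on these models. Genes were kept by filterByExpr, scaled by TMM (factors 1.025, 1.012, 0.968 and 0.997) and tested, two-sided, in 1 fit of all 4 libraries without covariates, by edgeR's quasi-likelihood test (version 4.0.16, R 4.3.3). Standard errors were derived from the F statistic, and the fit was tested on simulated data. More than 50% of genes were called, so the balance of calls depends on the scaling. Members, partner lists and marker lists were chosen with earlier results of these data known. Members with a mean of at least 1 CPM are named, others singly if called, and up to 4 called genes of each partner list with the smallest p. Limch1 and the members listed as not called or not tested were named outside that rule after their values were seen. The values of 1 class I member are not reported here, though it is in the counts. Promoters are from RefSeq GRCm38.p6. In 46 of 57 the first transcribed bases were found in an M21 transcript of the gene. Alternatives covered scaling, tool (DESeq2 1.42.0, limma 3.58.1), filter, replicate block, spread and leaving out each library. Reads of 3 counts correspond to 0.0671 to 0.0814 CPM per library.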

Additional observations from a re-analysis of the deposited data

How the results depend on the processing

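The labels do not say whether the replicate numbers pair the libraries. Deviations of same-numbered libraries correlated at 0.00 over all genes and -0.04 over genes of at least 10 CPM. Those values show no common deviation but cannot decide whether such libraries shared a culture or day. With the replicate number as a block, 10929 genes and 26 members were called, 10 higher and 16 lower. It changed no call of a member. Of the named members called, none changed direction under an alternative. Higher calls made up 47.7% of all calls with TMM, 58.0% with upper-quartile scaling (6640 higher, 4811 lower) and 40.3% with the library size alone, and these scalings moved the median of all genes by 0.08 and -0.05 on the log2 scale. Members called higher and lower were 11 and 13 with upper-quartile scaling, and 8 and 17 with the library size alone. DESeq2's Wald test called 6 members higher and 15 lower, losing Myh3, Myh7, Mylk3, Myo1a and Myo7b. With upper-quartile scaling 7 light chain phosphorylation genes were higher.

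A coefficient of variation set to 0.2, several times that estimated here (3.64%), lowered most counts: 3305 genes called (1262 higher, 2043 lower), 10 members (3 higher, 7 lower), and 9 members of at least 1 CPM (2 higher, 7 lower). It left 1 light chain phosphorylation gene (0 higher, 1 lower), 18 actin filament partners (1 higher, 17 lower) and 2 cargo adaptors (2 higher, 0 lower). Myh9 and Myh14 were then not called (adjusted p 0.185 and 0.0543), nor were Myo1d, Myo5a, Myo6, Myo9a, Myo10, Myo16, Myo18a, Myo19 and Myh15. Leaving out each library gave 9053 to 10235 genes and 19 to 24 members called, with 5 to 9 higher and 14 to 15 lower, the lone library left in a group being assumed to vary like the other group. The lowest of these, 5 higher, came without control replicate 2, where Myo9a was also not called (-0.12, adjusted p 0.17). Of the 5 calls under 1 CPM none held through all 4 leave-outs: Myh3 and Myo1a were lost in each, Mylk3 and Myo7b in 3 and Myh7 in 2. These members held 3 to 28 reads per library.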
